A study of Macaca mulatta with 95 samples.

Results

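CCNB1, AURKA, AURKB and CDC20 were followed in 95 single cells taken from rhesus macaque embryos between the 16-cell stage and the hatched blastocyst. The 4 genes were taken by name from a table of 16049 genes, and each had 1 row there (NCBI gene identifiers 699504, 698190, 721955 and 702317 in the RefSeq gene table). CCNB1 encodes cyclin B1, which binds the kinase CDK1 to form the complex that drives a cell into mitosis. AURKA encodes Aurora A, a kinase of the centrosomes and spindle poles, and AURKB encodes Aurora B, the kinase of the chromosomal passenger complex at centromeres and later at the midzone. CDC20 encodes an activator of the anaphase-promoting complex, the ubiquitin ligase that marks cyclin B1 and securin for destruction and so ends mitosis. In dividing somatic cells the RNAs of such genes build up towards mitosis, whereas the first divisions of an embryo run on products stored in the oocyte.

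All cells came from rhesus monkey embryos made by fertilising mature oocytes of hormone-stimulated females and growing them in culture, and no group was treated. The groups were 5 cells of the 16-cell stage (about day 3 of development), 10 of the early morula (day 4), 10 of the late morula (day 4.5), 16 of the early blastocyst (day 5), 17 of the middle blastocyst (day 5.5), 19 of the late blastocyst (day 6) and 18 of the hatched blastocyst (day 7). A membrane dye applied to the intact embryo marked 24 cells as outer, and the 71 cells that took none were labelled inner; every late and hatched blastocyst cell used here was inner. Each title also starts with a letter (A, B, D, G or H) that the labels do not explain. The 16-cell stage held only letter B, the early morula only H and the late morula only D, so stage and letter cannot be told apart there. The early blastocyst held A (6 outer and 5 inner cells), G (3 inner) and H (2 inner), the middle blastocyst B (5 outer and 4 inner), G (4 inner) and H (4 inner), the late blastocyst G (15) and H (4), and the hatched blastocyst G (9) and H (9). For 9 cells titled late blastocyst another label named the hatched stage, and they were kept under their titles; they were all 4 late blastocyst cells of letter H and 5 of the 15 of letter G. No label named an embryo or a female, so cells of 1 group may be sisters, each group counts as 1 sample, and no difference below has a replicate check or a p-value. Each SD is the spread from cell to cell.

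Values were RPKM, read counts scaled to gene length and library size, a scale already corrected for gene length, so levels of different genes can be set side by side. At the median depth 1 read was worth 0.0281 RPKM of CCNB1, 0.0252 of AURKA, 0.0503 of AURKB and 0.0377 of CDC20, so that 10 RPKM stood for 356, 396, 199 and 266 reads. Relative depth ran from 0.218 to 1.54 times the median, and 4 of the 6 cells below 0.5 were late morula cells. A median of 4634 genes (2358 to 7379) reached 1 RPKM per cell. POU5F1, a pluripotency factor of the early embryo, averaged 3063 RPKM over all cells. The 10 epiblast markers, POU5F1 among them, summed to a median of only 3.86 RPKM in hatched letter G cells. The 9 cumulus cell markers summed to at most 22.5 RPKM in any cell, with FOXL2, FSHR and PTX3 at 0 throughout. Fibroblast, blood and sperm markers had median sums of 0.0693, 0 and 0 RPKM. Their highest sums were 417, 190 and 176 RPKM, and the genes of highest mean were COL1A2, LYZ and SPACA1. Intervals for shares of cells are exact Clopper-Pearson 95% intervals; they cover counting error only, and neither cells of 1 embryo nor reads amplified by PCR are independent draws. For a share of 0, the share that 3 counts would give is printed as what it allows.

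A cell was counted as high for a gene at 10 RPKM or more. CDC20 was high in 79 of 95 cells, AURKB in 77, CCNB1 in 63 and AURKA in 45. All 4 genes were high together in 34 of 95 cells (35.8%, 26.2% to 46.3%), 3 of them in 24 cells, 2 in 20, 1 in 16 and none in 1 cell. The share of cells high for all 4 was 3 of 5 at the 16-cell stage (60.0%, 14.7% to 94.7%) and 9 of 10 in the early morula (90.0%, 55.5% to 99.7%). No late morula cell was high for all 4, and 0 of 10 allows a share of up to 30.0%. It was 5 of 16 in the early blastocyst (31.2%, 11.0% to 58.7%), 5 of 17 in the middle blastocyst (29.4%, 10.3% to 56.0%), 4 of 19 in the late blastocyst (21.1%, 6.05% to 45.6%) and 8 of 18 in the hatched blastocyst (44.4%, 21.5% to 69.2%). The intervals of the early and late morula did not overlap, and those of the 4 blastocyst stages did. They count cells that may be sisters, and the morula stages also differ in title letter, so this is no test between stages.

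In the early and middle blastocyst the title letter went with the count. There, 2 of 20 cells with the letters A and B were high for all 4 (10.0%, 1.23% to 31.7%). With G and H it was 8 of 13 (61.5%, 31.6% to 86.1%), and these intervals overlapped narrowly. The G and H cells were all inner, and among inner cells with A or B it was 0 of 9, which allows up to 33.3%. In the late blastocyst it was 2 of 15 for G and 2 of 4 for H. In the hatched blastocyst it was 5 of 9 for G and 3 of 9 for H. Over all stages the share was 1 of 11 for letter A, 4 of 14 for B, 0 of 10 for D, 13 of 31 for G and 16 of 29 for H. It was 9 of 24 for outer and 25 of 71 for inner cells, but no late, hatched or letter G cell was outer. At the 16-cell stage it was 2 of 3 outer against 1 of 2 inner cells, and in the early morula 5 of 5 against 4 of 5. In the late morula it was 0 of 5 in both positions. In letter A of the early blastocyst it was 1 of 6 against 0 of 5, and in letter B of the middle blastocyst 1 of 5 against 0 of 4. The 30 cells of the late morula and of letters A and B in the early and middle blastocyst join sets with low shares. In them CDC20 was high in 26 and AURKB in 20, but AURKA in 7 and CCNB1 in 6. They also had fewer genes at 1 RPKM or above, at a median of 3532 against 4634 over all cells. The share of all genes at 10 RPKM in them is not given, and the part of gene number in these counts was not tested. Of the 13 cells in the series that were high for AURKB and CDC20 alone, 12 were among those 30. The next commonest combination after all 4 together was CCNB1, AURKB and CDC20 without AURKA, in 18 cells.

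**Figure D1:**
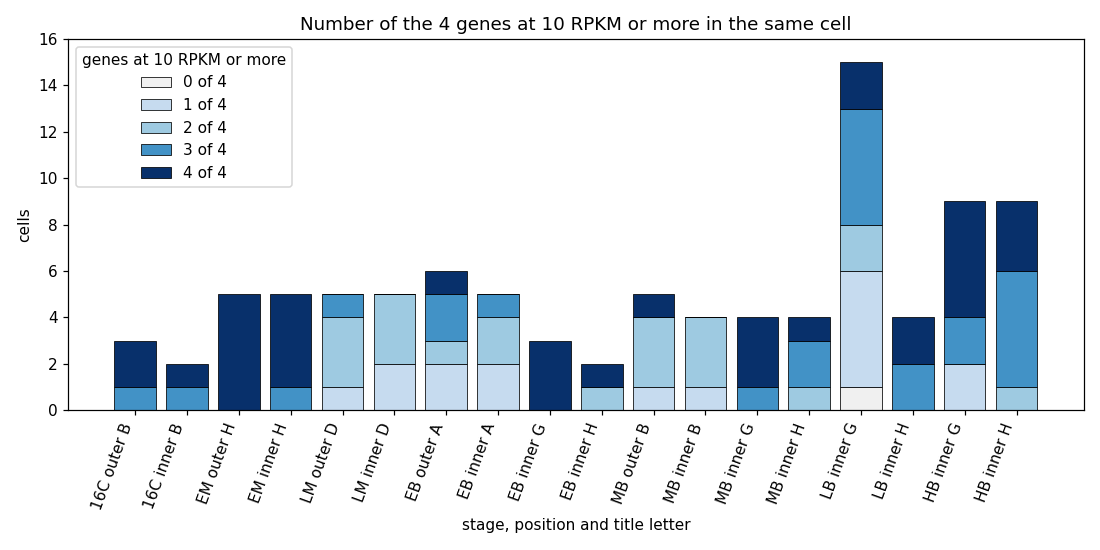
Stacked bars show, for each of the 18 sets of cells with the same stage, position and title letter, the number of cells (vertical axis) in which 0, 1, 2, 3 or 4 of the genes CCNB1, AURKA, AURKB and CDC20 reached 10 RPKM (16C, 16-cell; EM and LM, early and late morula; EB, MB, LB and HB, early, middle, late and hatched blastocyst). Cells with all 4 make up 9 of 10 early morula cells, none of the 10 late morula cells, and 8 of 13 cells with the letters G and H in the early and middle blastocyst.

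Few cells lay near the line of 10 RPKM, apart from AURKA. The cells nearest to it had 14.7 and 8.44 RPKM for CCNB1, 10.8 and 9.999 for AURKA, 10.1 and 8.09 for AURKB, and 19.8 and 9.64 for CDC20. Between 5 and 20 RPKM there were 9, 15, 10 and 3 cells, in the same order. CCNB1 was at 0 in 5 cells, AURKA in 7, AURKB in 1 and CDC20 in none.

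CCNB1 was present at the 16-cell stage, reached its highest stage mean in the early morula, and was lowest in the late morula. The 3 outer cells of the 16-cell stage held 31.1, 34.2 and 83.3 RPKM and the 2 inner cells 50.4 and 73.0 RPKM, a mean of 54.4 RPKM (SD 23.2, n = 5 cells). In the early morula the 5 outer cells held 144, 218, 276, 297 and 483 RPKM and the 5 inner cells 85.2, 139.6, 162, 230.5 and 261 RPKM, a mean of 229.6 RPKM (SD 112, n = 10 cells). Every early morula cell was above every 16-cell cell. The late morula outer cells held 0.629, 0.806, 0.922, 1.48 and 5.07 RPKM and the inner cells 0, 0.103, 0.133, 0.216 and 0.999 RPKM. The highest of these 10 late morula values was below the lowest of the 15 earlier cells. In reads, CCNB1 summed to 169 over the 10 late morula cells (0 to 65 a cell) and to 79280 over the 10 early morula cells (3450 to 13735 a cell).

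In the early blastocyst, CCNB1 split by letter. The outer letter A cells held 0, 0.156, 1.14, 53.1, 79.2 and 104 RPKM, 3 of them high and 3 near 0, and the inner letter A cells 0, 0.0554, 1.37, 5.24 and 32.3 RPKM, 1 of them high. The inner cells held 36.2, 187 and 379.8 RPKM for letter G and 102 and 325 RPKM for letter H, all high. In the middle blastocyst the letter B cells stayed low, at 0, 0.159, 7.51, 14.7 and 19.8 RPKM in outer and 0.0199, 0.893, 2.03 and 5.17 RPKM in inner cells. The inner letter G cells held 146, 187, 281 and 522 RPKM, and the letter H cells 0, 92.4, 142 and 151 RPKM. Apart from 1 letter H cell at 0, each inner cell of G or H was above every letter B cell. Late blastocyst letter G cells ran from 0.0641 to 461 RPKM with a median of 43.3 RPKM, and the 4 letter H cells held 40.1, 114, 153 and 475 RPKM. Hatched blastocyst cells ran from 0.110 to 518 RPKM with a median of 99.8 RPKM for letter G, and from 31.4 to 250.3 RPKM with a median of 98.9 RPKM for letter H. By stage mean the order for CCNB1 was early morula, hatched, late, middle and early blastocyst, 16-cell stage and late morula, at 229.6, 149, 115, 92.4, 81.6, 54.4 and 1.04 RPKM. Only the last neighbours in that order, the 16-cell stage and the late morula, had values that did not overlap.

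AURKA was the least often high of the 4. It held 8.59, 16.6 and 21.2 RPKM in outer and 8.23 and 34.8 RPKM in inner cells of the 16-cell stage. In the early morula the outer cells held 69.8, 85.5, 128, 142 and 159.7 RPKM and the inner cells 24.8, 35.4, 36.5, 51.5 and 58.2 RPKM, with every outer cell above every inner cell. In the late morula it was above 10 RPKM in 3 cells and below 1 RPKM in the rest, at 0, 0.190, 0.644, 13.3 and 13.3 RPKM in outer and 0.0582, 0.168, 0.547, 0.921 and 15.9 RPKM in inner cells. Blastocyst cells were mostly either at or near 0 or well above 10 RPKM. The early blastocyst held 0, 0.0221, 0.106, 0.116, 6.82 and 13.9 RPKM in outer letter A cells, 0.187, 0.613, 0.769, 20.7 and 35.1 RPKM in inner letter A cells, 38.3, 67.5 and 83.8 RPKM in letter G and 0.0238 and 92.6 RPKM in letter H cells. The middle blastocyst held 0.0293, 0.0407, 0.0822, 1.17 and 15.8 RPKM in outer and 0.153, 0.235, 2.42 and 2.43 RPKM in inner letter B cells, 0, 24.2, 29.4 and 67.5 RPKM in letter G and 0.0752, 1.99, 12.9 and 17.2 RPKM in letter H cells. Only 1 of the 9 middle blastocyst letter B cells was high, against 3 of 4 for G and 2 of 4 for H. Late blastocyst cells of letter G ran from 0 to 196 RPKM with a median of 0.232 RPKM, with 5 of 15 high, and those of letter H held 0.0779, 0.790, 29.0 and 108 RPKM. Hatched blastocyst cells ran from 0 to 287 RPKM with a median of 29.2 RPKM for letter G; for letter H they ran from 0.0245 to 91.2 RPKM with a median of 9.999 RPKM, so 5 of 9 and 4 of 9 were high. Stage means were 79.2 in the early morula, 40.4 hatched, 28.0 late, 22.5 early blastocyst, 17.9 at the 16-cell stage, 10.3 middle blastocyst and 4.51 RPKM in the late morula, and all neighbours in that order overlapped.

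AURKB was highest on average at the 16-cell stage, and its low cells were scattered over later stages. At the 16-cell stage it held 185, 351 and 629 RPKM in outer and 216 and 673 RPKM in inner cells, a mean of 411 RPKM (SD 228, n = 5 cells). Early morula outer cells held 59.3, 62.8, 89.6, 95.2 and 119.7 RPKM and inner cells 4.17, 12.1, 55.3, 137 and 164 RPKM, all below every 16-cell value. Late morula outer cells held 0.469, 1.83, 104, 132 and 239.9 RPKM and inner cells 0.275, 0.968, 8.09, 13.1 and 217 RPKM, so 5 of 10 cells were high and the values spread from under 1 to over 200 RPKM within each position. Early blastocyst outer cells, all of letter A, held 51.1, 95.4, 144, 408, 461 and 589 RPKM, and the inner cells of that letter 0.794, 0.923, 5.74, 126 and 151 RPKM. The letter G cells held 10.1, 15.6 and 139 RPKM and the letter H cells 7.87 and 101 RPKM. All 6 outer letter A cells were high, and 2 of the 5 inner ones. In the middle blastocyst AURKB held 0.835, 112, 288, 758 and 874 RPKM in outer and 6.59, 125, 359 and 421 RPKM in inner letter B cells, 32.2, 73.2, 161 and 321 RPKM in letter G and 94.2, 134, 211 and 266 RPKM in letter H cells. The largest AURKB values of the series, above 700 RPKM, were in 2 of these outer letter B cells. Late blastocyst letter G cells ran from 0 to 203 RPKM with a median of 65.7 RPKM and letter H cells held 45.9, 84.0, 131 and 175 RPKM. Hatched blastocyst cells ran from 0.107 to 206 RPKM with a median of 75.4 RPKM for letter G and from 26.3 to 301 RPKM with a median of 59.9 RPKM for letter H. The stage means, 411 RPKM at the 16-cell stage, 249 middle, 144 early and 99.7 hatched blastocyst, 79.9 early morula, 79.1 late blastocyst and 71.8 RPKM late morula, had overlapping values for all neighbours.

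CDC20 was the most abundant of the 4 and the only one never at 0. It held 697, 848 and 1045 RPKM in outer and 544 and 1278 RPKM in inner cells of the 16-cell stage, a mean of 882 RPKM (SD 288, n = 5 cells). Early morula outer cells held 116, 285, 286, 286 and 347 RPKM and inner cells 98.9, 225, 249, 297 and 313 RPKM, all below the 16-cell values. Late morula outer cells held 184, 259.8, 282, 359 and 363 RPKM and inner cells 19.8, 256, 282, 427 and 529.8 RPKM. All 10 late morula cells were thus high for CDC20, while none was high for CCNB1. In the early blastocyst it held 1.19, 1.42, 275, 327, 345 and 354 RPKM in outer and 2.30, 49.3, 194, 255 and 626 RPKM in inner letter A cells, 72.3, 74.1 and 622 RPKM in letter G and 31.4 and 157 RPKM in letter H cells. In the middle blastocyst it held 1.79, 359, 419, 1411 and 1548 RPKM in outer and 195, 422, 478 and 544 RPKM in inner letter B cells, 118, 132, 319 and 789 RPKM in letter G and 0.468, 54.7, 57.4 and 182 RPKM in letter H cells. CDC20 was below 3 RPKM in 14 cells of the series, of which 9 held less than 1 RPKM of CCNB1 and 5, all late or hatched blastocyst cells of letter G, held 5.70 to 119 RPKM. Late blastocyst letter G cells ran from 0.0625 to 344 RPKM with a median of 35.8 RPKM and letter H cells held 58.3, 210.3, 304 and 381 RPKM. Hatched blastocyst cells ran from 0.279 to 387 RPKM with a median of 88.3 RPKM for letter G and from 8.12 to 496 RPKM with a median of 174 RPKM for letter H. The stage means, 882 RPKM at the 16-cell stage, 414 middle blastocyst, 296 late and 250.4 early morula, 212 early, 155 hatched and 119 RPKM late blastocyst, overlapped in their values for all neighbours.

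**Figure D2:**
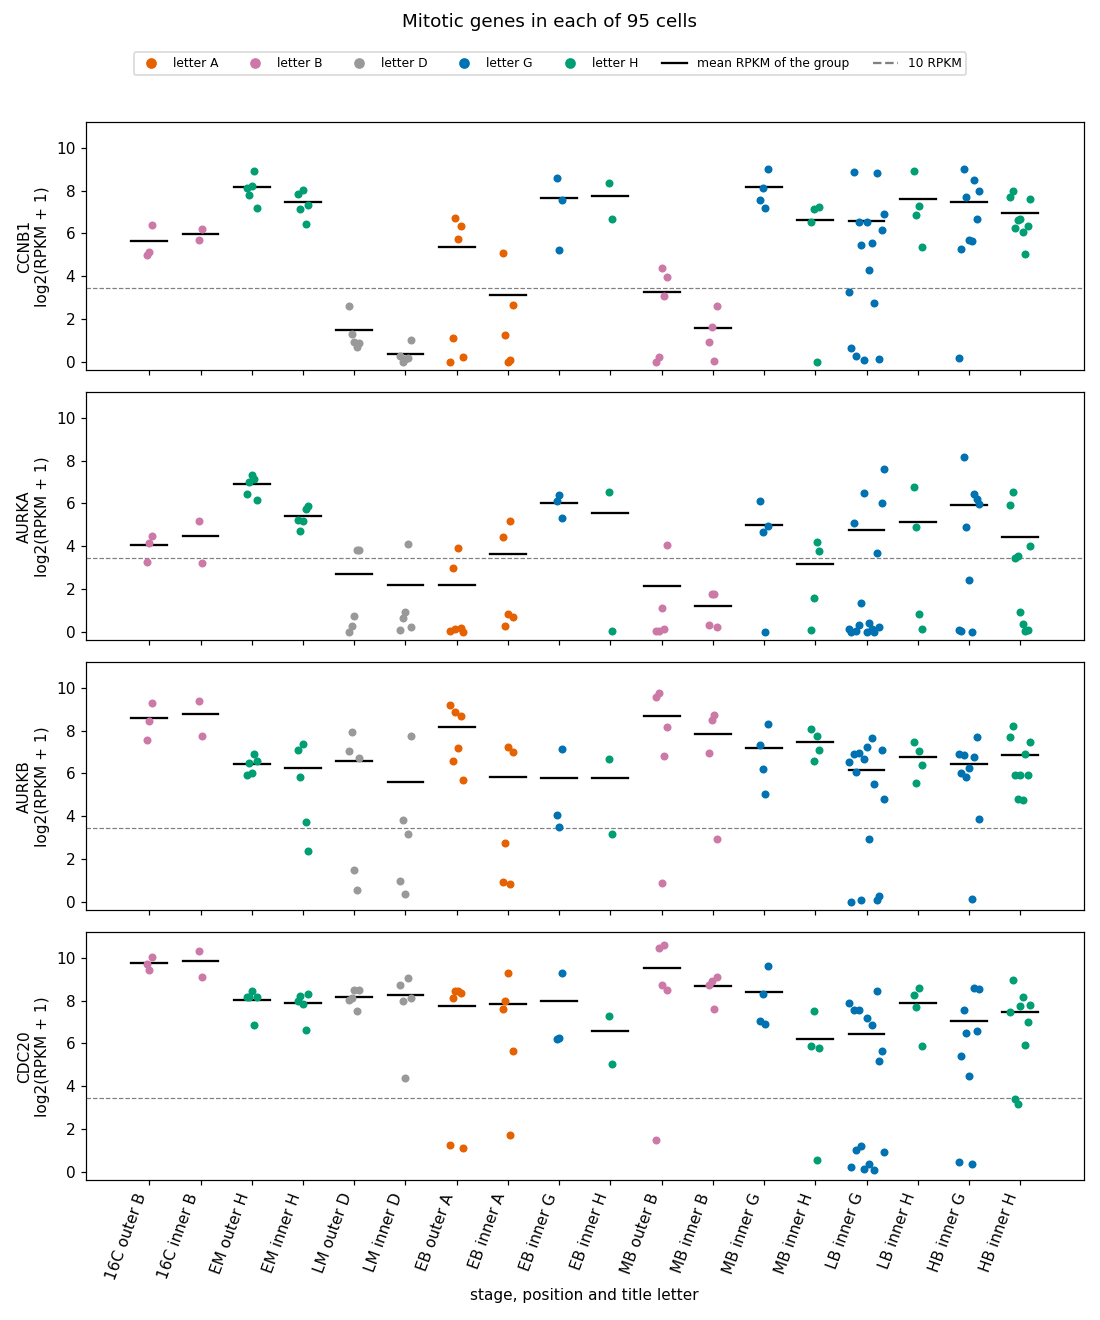
Each point is 1 cell, placed by stage, position and title letter (horizontal axis) and by log2(RPKM + 1) of the gene named above the panel (vertical axis); black bars are set means of RPKM on the same scale, and the dashed line is 10 RPKM. CCNB1 lies below the line in all 10 late morula cells (5.07 RPKM at most), while CDC20 lies above it in all 10.

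For comparisons between groups, the value given is the log2 ratio of mean RPKM, each with 1 RPKM added, which understates the difference of low genes. A gene was measured where either mean reached 5 RPKM, and called higher or lower at 2-fold, without a test. Between the 16-cell stage and the early morula the 4 members parted into pairs: CCNB1 and AURKA were higher in the early morula, at 2.06 and 2.09, and AURKB and CDC20 lower, at -2.35 and -1.81. Of all measured genes 44.7% were called higher and 25.1% lower, with a median of 0.64, so calls in both directions were common. The values of CCNB1, AURKB and CDC20 did not overlap between the stages, and those of AURKA did. Here and in the comparisons below, the share of all genes without overlap is not given. A lack of overlap therefore describes the cells and does not set the members apart from other genes. CDK1, the kinase partner of cyclin B1, stood apart without overlap as well (early morula 136 against 1.15 RPKM, 5.99). CCNB2, the other mitotic B-type cyclin, averaged 74.7 and 232 RPKM.

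The genes around the 4 members were grouped in 7 lists of 128 symbols, 117 of them in the table. In the list of Aurora A partners and spindle genes, 10 were higher and 0 lower of 14 measured, with a median of 2.16. Of chromosomal passenger and cytokinesis genes, 6 were higher and 0 lower of 10 measured, with a median of 1.85. Of spindle checkpoint genes, 6 were higher and 2 lower of 9 measured, with a median of 2.00. The checkpoint kinase BUB1 and its partner MAD2L1 stood at 4.97 and 5.02, and the cytokinesis factor ECT2 at 5.08. Of S phase genes, 7 were higher and 4 lower of 16 measured, with a median of 0.93, and of G1 cyclins and inhibitors, 2 were higher and 2 lower of 9 measured, with a median of -0.18. Of cyclin B-CDK1 and mitotic entry genes, 11 were higher and 3 lower of 20 measured, with a median of 1.19, and of genes of the anaphase-promoting complex and its substrates, 11 were higher and 4 lower of 20 measured, with a median of 1.24. AURKB and CDC20 were thus lower in the early morula while most called genes of their own lists were higher. Over all measured genes, too, more were called higher (44.7%) than lower (25.1%). Among chromosomal passenger and cytokinesis genes, BIRC5 (0.003), AURKC (-0.17), CIT (-0.50) and CDCA8 (-0.87) stayed within 2-fold, and INCENP was not measured. Cells of the early morula also had more genes at 1 RPKM or above (median 6643 against 5362), whose part in these differences was not tested.

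Between the early and the late morula CCNB1 was lower by the widest margin of any stage comparison of the 4 genes, at -6.82, and AURKA at -3.86, both without overlap. AURKB (-0.15) and CDC20 (0.24) stayed within 2-fold. Of all measured genes 49.0% were called lower, with a median of -0.92, so 2 of 4 members called lower is close to the background share. Values rescaled per cell left both calls in place but lifted the other pair: with factors from 2624 genes common to most cells, chosen after seeing the data, CCNB1 stood at -5.77, AURKA at -2.83, AURKB at 1.19 and CDC20 at 1.48, and the median of all genes moved to 0.25. With the median over cells in place of the mean, AURKB stood at -2.74, since 5 late morula cells were low. Median relative depth was 0.542 in the late morula, and a median of 3719.5 genes reached 1 RPKM there; the part of either in these values was not tested. Against the 16-cell stage CCNB1 was lower at -4.77, and all 4 members were called lower, where 32.5% of measured genes were. The AURKA call ended with a pseudocount of 10 (-0.94) and the CDC20 call with factors from common genes (-0.87).

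Of the 7 pathway lists, 6 had medians below that of all genes. In the late morula, of spindle checkpoint genes 1 were higher and 7 lower of 8 measured, with a median of -3.86. Of chromosomal passenger and cytokinesis genes 0 were higher and 8 lower of 9 measured, with a median of -3.32. In that list RACGAP1, of the centralspindlin complex, stood at 0.0261 against 33.6 RPKM, -5.08, and BIRC5 stayed within 2-fold (-0.26). PRC1, which bundles midzone microtubules and was not counted in that list, stood at 0.122 against 40.7 RPKM, -5.22. Of Aurora A and spindle genes 1 were higher and 11 lower of 14 measured, with a median of -2.73. Of anaphase-promoting complex genes 2 were higher and 13 lower of 20 measured, with a median of -2.67; PTTG1, which encodes securin, stood at 1.49 against 59.6 RPKM, -4.61. Of cyclin B-CDK1 genes 1 were higher and 13 lower of 20 measured, with a median of -1.78; the CDK subunit CKS2 stood at 2.72 against 405 RPKM, -6.77, and CDK1 at 3.49 against 136 RPKM, -4.93. Of S phase genes 2 were higher and 10 lower of 17 measured, with a median of -1.23. The list of G1 cyclins and inhibitors was the one with a positive median (3 were higher and 2 lower of 9 measured, with a median of 0.89). In it the CDK inhibitor gene CDKN1A averaged 5.86 RPKM in the early morula and 213 RPKM in the late morula, where 8 of 10 cells held 10 RPKM or more, and 0.601 RPKM in the early blastocyst.

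**Figure D3:**
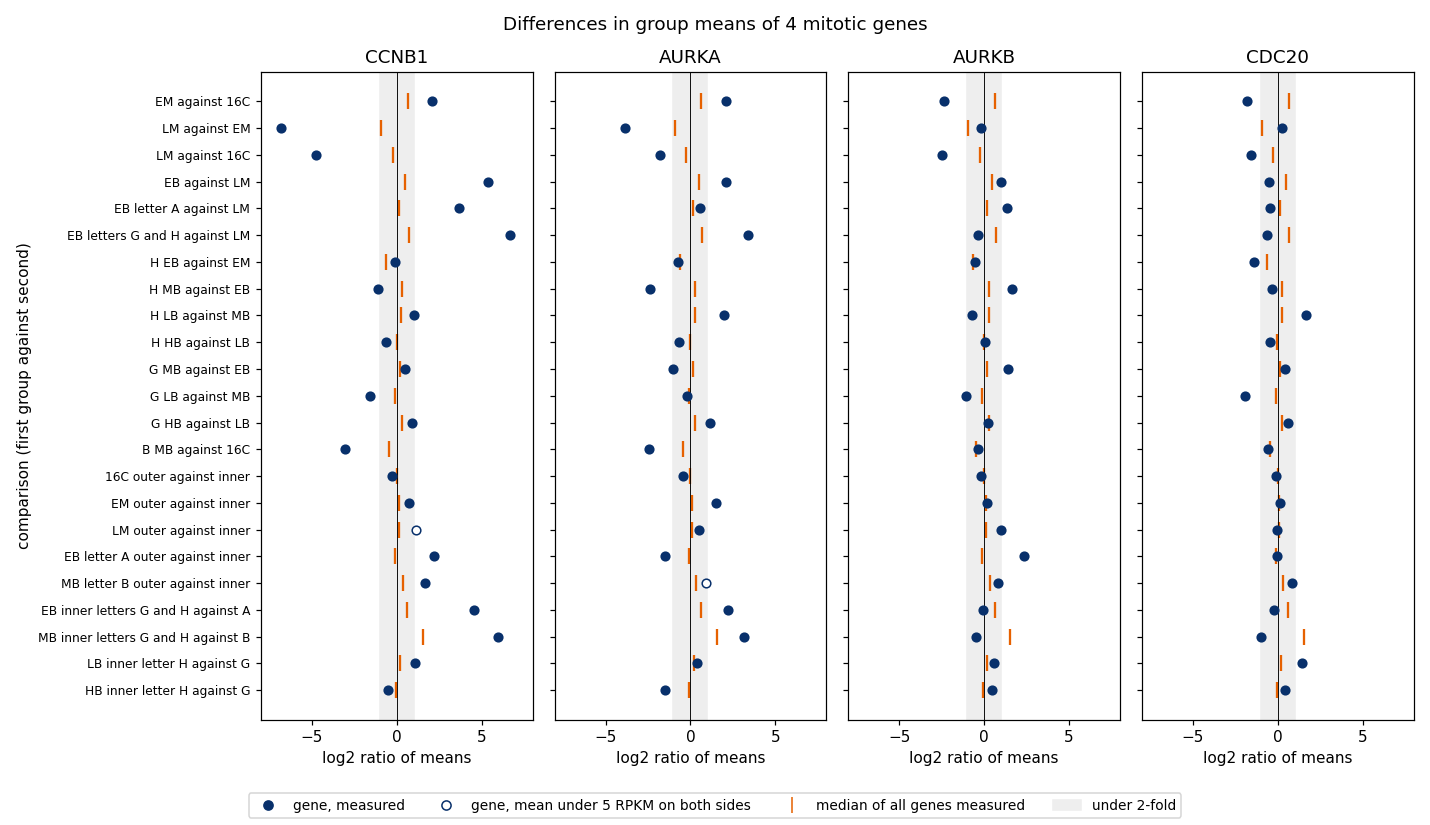
The log2 ratio of group means (horizontal axis) of CCNB1, AURKA, AURKB and CDC20 is shown for the 23 comparisons (rows); the grey band marks less than 2-fold, the orange tick the median of all measured genes, and an open circle a gene whose means were both under 5 RPKM. CCNB1 lies at -6.82 in the late against the early morula and at 5.98 in middle blastocyst inner cells of letters G and H against B, while CDC20 stays within the band in both.

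From the late morula to the early blastocyst CCNB1 (5.34) and AURKA (2.10) were called higher, where 41.9% of genes were, and CDC20 stayed at -0.48. AURKB stood just under 2-fold in this comparison, and leaving out any of 14 single cells took it above the line, to at most 1.42 without the late morula outer cell D-03. Split by letter, both sides against the same late morula cells, the letter A cells had CCNB1 at 3.68 and AURKB at 1.35, with 34.1% of genes called higher, and AURKA within 2-fold at 0.56. The AURKB call was lost, at just under 2-fold, without the outer cell A-02, and the CCNB1 call with the median over cells (0.46). The letter G and H cells were all inner, while the late morula cells were 5 outer and 5 inner. They had CCNB1 at 6.67, without overlap, and AURKA at 3.38, with 46.6% of genes called higher. There AURKB (-0.38) and CDC20 (-0.63) were within 2-fold, but would be called lower, at -1.07 and -1.81, without the inner cell G-18.

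Comparing letters within 1 stage and position removes the stage. Among early blastocyst inner cells, CCNB1 averaged 7.80 RPKM in letter A and 206 RPKM in letters G and H (4.56, no overlap), and AURKA stood at 2.20. AURKB and CDC20 stood at -0.05 and -0.23. Of all measured genes 45.0% were called higher, with a median of 0.62. The AURKA call ended at 0.53 with the factors from common genes, which put CDC20 at -1.02 and the median of all genes at -0.34. CDC20 stood at -1.42 without the inner cell G-18.

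In the middle blastocyst G and H were set against B. The ratios of CCNB1 and AURKA were larger than in the early blastocyst, but so was the median of all genes (1.53 against 0.62). The CCNB1 values overlapped here. CCNB1 averaged 2.03 RPKM in the 4 inner letter B cells and 190.1 RPKM in the 8 inner cells of G and H (5.98), and AURKA 1.31 and 19.1 RPKM (3.12). AURKB (-0.49) and CDC20 (-0.98) leaned the other way within 2-fold. Here 55.0% of genes were called higher and the median of all was 1.53, so AURKB and CDC20 lay well under the median. With either set of size factors both were called lower, AURKB at -1.25 and -1.53 and CDC20 at -1.66 and -2.10. The median of all genes was then 0.91 and 0.59. Leaving out G-03, G-10 or the inner letter B cell B-05 also took CDC20 past 2-fold, to -1.72 without G-10.

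In that comparison the neighbours of the members were called higher more often than lower: of chromosomal passenger and cytokinesis genes 8 were higher and 0 lower of 10 measured, with a median of 3.56, of checkpoint genes 7 were higher and 1 lower of 9 measured, with a median of 3.18, and of anaphase-promoting complex genes 15 were higher and 3 lower of 19 measured, with a median of 3.43. CDK1 was listed at 0 in all 4 inner letter B cells. CKS2 stood at 338 against 1.40 RPKM, 7.14, and BUB1 at 63.2 against 0.426 RPKM, 5.49. Of G1 cyclins and inhibitors 3 were higher and 7 lower of 11 measured, with a median of -1.07. The letter sets also differed in lineage markers. The summed level of the 11 trophectoderm markers in the table, among them the keratin genes KRT8 and KRT18, ran from 25898 to 41071 RPKM in the inner letter B cells, and from 299.9 to 3039 RPKM in the inner letter G and H cells of that stage. In early blastocyst inner cells the same sum ran from 2257 to 13754 RPKM in letter A and from 60.2 to 1509 RPKM in G and H. A median of 3594 genes reached 1 RPKM in middle blastocyst letter B cells and 3279 in early blastocyst letter A cells. GATA4, a hypoblast factor, was high in all 4 middle blastocyst letter G cells and in 0 of the 4 of letter H. The part of the lineage markers and of the number of genes in the split by letter was not tested.

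Stage steps within 1 letter kept the letter fixed. Within letter H, the 2 early blastocyst cells were inner, and the 10 early morula cells were 5 outer and 5 inner. AURKA averaged 46.3 RPKM in those 2 cells, and 117 RPKM in outer and 41.3 RPKM in inner early morula cells. From the early morula to the 2 early blastocyst cells, CDC20 was lower (-1.40), where 42.2% of genes were, and the other 3 stayed within 2-fold. With 2 cells on 1 side this rested on single cells: without H-03 the ratios of CCNB1, AURKA and AURKB became -1.16, -6.29 and -3.19, and without H-05 that of CDC20 became -0.67; either set of size factors also ended the CDC20 call (-0.98 and -0.82). From the early to the middle blastocyst CCNB1 (-1.14) and AURKA (-2.39) were lower and AURKB higher (1.67), where 27.6% of genes were called lower and 35.8% higher. Without the early cell H-03 AURKA turned to 3.14, CCNB1 to -0.09 and CDC20 to 1.20, without the early cell H-05 AURKB stood under the line at 0.80 and CDC20 stood at -1.08, without the middle cell H-09 CCNB1 stood at -0.73, and without the middle cell H-05 CDC20 stood at -1.31. Of the lineage genes at 10 RPKM, NANOG was high in 1 of 2 early, 3 of 4 middle, 4 of 4 late and 9 of 9 hatched letter H cells, and GATA4 was high in 2 of the 4 late cells and in no other blastocyst cell of that letter; the part of lineage in these steps was not tested. All 4 late cells of letter H carried the other label of hatched blastocyst, so both steps that use them depend on taking the stage from the title, and neither could be made without those cells. By title, from the middle to the late blastocyst CCNB1 (1.01), AURKA (1.97) and CDC20 (1.68) were called higher, where 34.8% of genes were. Only CDC20 stayed called without the late cell H-03, where CCNB1 stood at 0.09, AURKA at 0.28 and AURKB at -1.01; CCNB1 also lost its call without the middle cell H-09 (0.60) or H-03 (just under the line), with either set of size factors (0.78 and 0.52) and with the median over cells (0.19), which put AURKA at 0.92. Between the cells titled late and those titled hatched, all hatched by the other label, no member of letter H was called (-0.66, -0.70, 0.08 and -0.42 for CCNB1, AURKA, AURKB and CDC20), though AURKA passed 2-fold downwards, to -1.06, -1.44, -1.09 and -1.10, without the hatched cells H-01 or H-03 or the late cells H-14 or H-15.

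In letter G the lineage genes differed between the stages. NANOG was 84.5 to 184 RPKM in the 3 early blastocyst cells and at most 3.69 RPKM in the 4 middle ones, and GATA4 at most 0.180 RPKM in the early and 103 to 141 RPKM in the middle cells. At 10 RPKM the 15 late cells were a mixture, with NANOG high in 6, GATA2 in 6 and GATA4 in 3, and 8 of the 9 hatched cells were high for GATA2 and none for NANOG. All 5 late letter G cells with the other label of hatched blastocyst were high for GATA2. Stage and lineage cannot be told apart in these steps. Within letter G, from the early to the middle blastocyst, AURKB was called higher (1.40) and AURKA lower (-1.04), beside 32.4% and 24.9% of all genes. Both calls ended without either of 2 early cells, G-11 or G-13, and AURKB also without the middle cell G-10 (0.68) and AURKA without the middle cells G-03 (-0.95) or G-04 (-0.63). Without early cells G-11 and G-18, 1 at a time, CCNB1 (1.34) and CDC20 (2.20) passed 2-fold. From the middle to the late blastocyst CCNB1 (-1.58), AURKB (-1.03) and CDC20 (-1.95) were called lower, where 26.8% of genes were. AURKB lay so close to the line that leaving out any of 9 cells, 7 late and 2 middle, ended its call, at -0.32 without the middle cell G-10, and AURKA was called lower, at -1.05, without the late cell G-27. From the late to the hatched blastocyst only AURKA was called higher (1.16), where 26.6% of genes were, and not without the hatched cell G-05 (0.26) or with either set of size factors (0.85 and 0.39). CCNB1, at 0.89, passed the line without any 1 of 6 cells, to at most 1.35 without the late cell G-17, and to 1.20 without the cells with conflicting labels.

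Letter B spanned a wider interval, from the 16-cell stage to the middle blastocyst. CCNB1 (-3.07, no overlap) and AURKA (-2.44) were lower, where 39.1% of genes were and the median was -0.45. AURKB (-0.33) and CDC20 (-0.56) were within 2-fold. With factors from common genes both were called higher, at 1.01 and 1.02, but the median of all genes also moved, to 0.74. PLK1, a kinase that acts with CDK1 and Aurora A at mitotic entry, averaged 264 RPKM at the 16-cell stage and was above 300 RPKM in 4 of the 5 outer letter B cells of the middle blastocyst. No letter B cell of either stage held 10 RPKM of CDK1 (0 of 14, which allows a share of up to 21.4%).

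Between outer and inner cells of 1 stage the members gave few calls before the blastocyst. At the 16-cell stage no member passed 2-fold between outer and inner cells (-0.31 for CCNB1, -0.45 for AURKA, -0.19 for AURKB and -0.08 for CDC20), and AURKA did, at -1.12, only without the inner cell B-02. In the early morula AURKA was higher in outer cells, at 117 against 41.3 RPKM (1.48, no overlap), where 16.1% of measured genes were called higher, the lowest of the background shares given here. CCNB1 (0.69), AURKB (0.19) and CDC20 (0.16) were within 2-fold there. In the late morula CCNB1 was not measured, its means being under 5 RPKM on both sides, and AURKA (0.52), AURKB (0.98) and CDC20 (-0.07) were not called. Without the inner cell D-10, the 1 inner cell with high AURKB, the AURKB ratio was 3.87, and with the median over cells 3.53; without the outer cells D-05 or D-06 it was 1.30. Without the inner cell D-08 AURKA stood at 2.19. AURKC, the third Aurora kinase, averaged 157 RPKM in outer and 12.0 RPKM in inner late morula cells.

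In the early blastocyst of letter A, CCNB1 (2.20) and AURKB (2.34) were called higher in outer cells, where 29.0% of genes were, and AURKA lower (-1.47), where 32.7% were. The AURKA call rested on the inner cell A-08, without which it stood at -0.55, and ended with the median over cells (-0.67). CDC20 did not differ by 2-fold (-0.05). In the middle blastocyst of letter B, CCNB1 was higher in outer cells (1.64), where 36.3% of genes were, though not with a pseudocount of 10 (0.62). The summed trophectoderm markers did not part these positions, with a median of 30304 RPKM in outer and 29549 RPKM in inner letter B cells. AURKA was not measured there, and AURKB (0.83) and CDC20 (0.87) were under 2-fold, although leaving out any of 4 cells took each past the line, to at most 1.31 for AURKB without the inner cell B-05 and 1.19 for CDC20 without the outer cell B-01.

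Among cells titled late blastocyst, where all 4 letter H cells and 5 of 15 letter G cells were labelled hatched elsewhere, the letter H cells had more CCNB1 (1.05) and CDC20 (1.44) than the letter G cells, where 27.5% of genes were called higher. The CCNB1 call was at the line: it ended without any 1 of 10 cells, at 0.12 without H-03, and at 0.52 and 0.26 with either set of size factors, which also ended the CDC20 call at 0.94 and 0.67. AURKA stood at 0.38, or at -1.32 without H-03 and 1.23 without the letter G cell G-27. In the hatched blastocyst, where all 9 letter H cells were high for NANOG and 8 of 9 letter G cells for GATA2, the letter H cells had less AURKA (-1.48), where 24.1% of genes were called lower, and at -0.58 without the letter G cell G-05, the 1 cell at 287 RPKM. CCNB1 (-0.50), AURKB (0.44) and CDC20 (0.41) were within 2-fold.

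The 37 late and hatched blastocyst cells were also sorted by 3 lineage genes, each counted at 10 RPKM: NANOG of the epiblast, GATA2 of the trophectoderm and GATA4 of the hypoblast. With NANOG alone there were 15 cells (5 of letter G and 10 of H), of which CCNB1 was high in 14, AURKB in 14, CDC20 in 11, AURKA in 5 and all 4 in 4. With GATA2 alone there were 13 cells, all of letter G, of which CCNB1 was high in 11, AURKB in 10, CDC20 in 10, AURKA in 8 and all 4 in 6. Mean AURKA was 19.7 RPKM with NANOG alone and 62.4 RPKM with GATA2 alone. With GATA4 alone there were 4 cells, 1 of them high for CCNB1 and for all 4. The remaining 5 cells held 1 that was high for all 4. Letter and lineage gene moved together here, and 5 of the 13 cells with GATA2 alone carried conflicting stage labels.

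Within single cells the 4 genes were only loosely tied. Over the 95 cells Pearson's r of log2(RPKM + 1) was 0.55 between CCNB1 and AURKA, 0.30 between CCNB1 and CDC20, 0.27 between AURKB and CDC20, 0.18 between AURKA and CDC20, 0.16 between CCNB1 and AURKB and 0.10 between AURKA and AURKB. These are descriptions over cells that may share embryos and were all amplified by PCR, with no test. Subtracting the mean of each stage, position and letter set lowered CCNB1 with AURKA to 0.34 and raised CCNB1 with CDC20 to 0.62. In the hatched blastocyst CCNB1 went with both AURKA (0.72, 18 cells) and CDC20 (0.72). By the line of 10 RPKM, AURKA was high without CCNB1 in 6 cells and CCNB1 without AURKA in 24, CDC20 without CCNB1 in 22 and CCNB1 without CDC20 in 6.

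**Figure D4:**
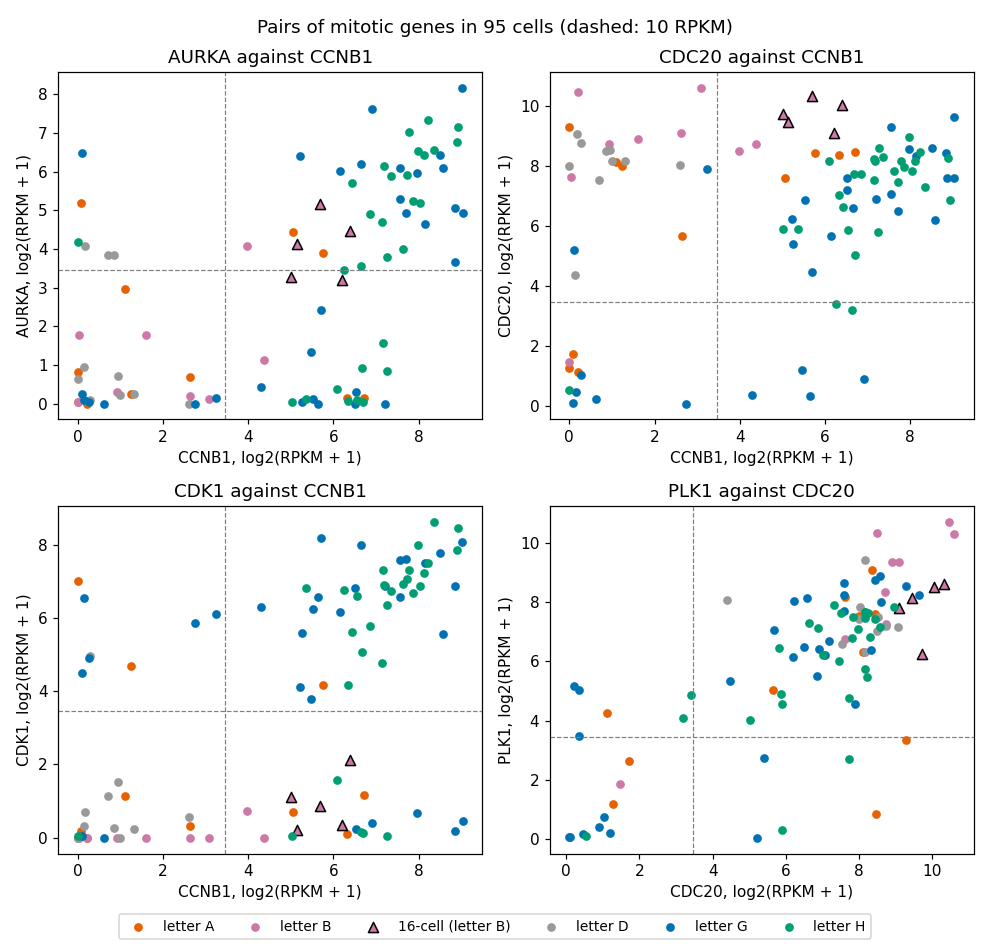
Each point is 1 of the 95 cells, with both axes log2(RPKM + 1) and colours for the title letter; triangles mark the 16-cell stage. AURKA and CCNB1 are high together in 39 cells and CDK1 and CCNB1 in 43, CDC20 against CCNB1 shows 22 cells high for CDC20 and not for CCNB1, and PLK1 and CDC20 are high together in 73 cells.

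CDK1, PLK1, AURKC and FZR1 encode partners or relatives of the members' products. CDK1 and CCNB1 were high together in 43 cells and low together in 24, and all 5 cells of the 16-cell stage were high for CCNB1 with CDK1 at 0.159, 1.15 and 3.35 RPKM in outer and 0.271 and 0.820 RPKM in inner cells. In the 30 cells of the late morula and of letters A and B in the early and middle blastocyst, CDK1 was high in 4 and PLK1 in 25. PLK1 and CDC20 were high together in 73 of 95 cells and low together in 10. AURKC, best known from germ cells and early embryos, averaged 256 RPKM at the 16-cell stage, 228 in the early morula, 84.3 in the late morula, 15.6 in the early blastocyst and 4.72 RPKM in the hatched blastocyst. How reads shared between the related Aurora genes were counted is not given in the sources used here. FZR1, the other activator of the anaphase-promoting complex, averaged 39.7 RPKM at the 16-cell stage, 25.9 and 29.3 in the morula stages and 10.4 RPKM in the hatched blastocyst, below CDC20 at each of those stages.

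Likeness was the r over the 95 cells between a gene's log2(RPKM + 1) and the mean of that value over the 4 members, among 7101 genes that reached 10 RPKM in 10 or more cells. The 8 first were TUBA1C (0.61), BUB1 (0.60), CCNB2 (0.60), HJURP (0.60), ALKBH1 (0.60), KPNA2 (0.59), CENPF (0.58) and LAP3 (0.56), where the median over all these genes was 0.18. With Spearman's rho 7 of them stayed among the first 8, and with set means subtracted 3 did, PLK1 coming first (0.65). Taken singly, CCNB1 was most like SF3A3 (0.77), BUB1 (0.75) and RAD21 (0.73). AURKA was most like G2E3 (0.61), NDUFAF7 (0.57) and GRSF1 (0.57). AURKB had the weakest likeness, to ARHGEF39 (0.44), EXOC7 (0.43) and DDX39B (0.42). CDC20 was most like PLK1 (0.75), UBE2S (0.72), which encodes the ubiquitin-conjugating enzyme that extends chains for the anaphase-promoting complex, and TUBA1C (0.59). The number of genes at 1 RPKM or above per cell itself had an r of 0.68 with CCNB1, 0.52 with AURKA, 0.23 with AURKB and 0.20 with CDC20, and of 0.28, 0.25, 0.27 and 0.24 with set means subtracted; its part in the likeness was not tested.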

How the data were processed

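Single macaque embryo cells were lysed, their polyadenylated RNA was copied and amplified by PCR after poly(A) tailing, and the libraries were read as 100-base single ends, per the labels' protocols; no molecular identifiers are mentioned there. The submitters' processing notes name FastQC, TopHat2 2.1.0, HTSeq and DESeq2, with no role or order; the genome build and annotation are not given in the sources used here. The deposited table names no unit. Its values for 16049 genes in 95 cells were read as RPKM made by the authors. Low values of a gene were whole multiples of 1 step within a cell, and cell totals differed (557059 to 1000590). For CCNB1, AURKA, AURKB and CDC20 the lowest 23, 40, 17 and 14 values above 0 lay within 0.05 reads of a whole number. The rest of the 90, 88, 94 and 95 values above 0 were rounded to whole reads without this check. All sample columns were mapped to cells by their titles, and 0 were left over. The largest r between the profiles of any 2 cells was 0.910.

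Group means were compared as the log2 ratio of means with 1 RPKM added. Genes whose means both lay under 5 RPKM were not measured, and 2-fold made a call; a cell was high at 10 RPKM. With no embryo named, cells were not replicates and no test was made. Beside list counts stand the counts and median over all measured genes. The pathway genes named were drawn from up to 4 of each list with the largest called differences in a comparison. CDK1, CCNB2, PLK1, AURKC, FZR1 and CDKN1A were named in some comparisons only, and BIRC5, CIT, CDCA8 and INCENP as list genes without a call. The like genes named were the 8 with the highest r to the members' mean and the 3 highest for each member. The 4 members and all lists were chosen with earlier results of these data known. Symbols were matched to the RefSeq gene table of assembly T2T-MMU8v2.0 (14282 of 16049 genes, 4 of 4 members), and no coordinates or sequences were used. Alternatives varied the pseudocount, the minimum mean, the threshold for a high cell, the mean against the median over cells, the scaling, the weight given to depth, the cells with conflicting labels, and each cell left out in turn. Calculations used Python 3.11.15, pandas 2.3.3, numpy 2.4.6, scipy 1.17.1 and matplotlib 3.10.9, and the comparison code was tested on simulated data.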

Additional observations from a re-analysis of the deposited data

Results flagged for a closer look

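Among the 52 combinations of gene and set of 4 to 10 cells that could be checked for a single cell far from the others, 8 stood out (15.4%); chance flags about 1 in 20 groups where values are normally distributed, which RPKM within a set need not be. The cells of a set are not replicates, and no cause was tested. CCNB1 gave 3 of them: the late morula outer cell D-01 at 5.07 RPKM (others 0.629 to 1.48), the late morula inner cell D-10 at 0.999 (others 0 to 0.216), and the early blastocyst inner cell A-03 at 32.3 (others 0 to 5.24). AURKA gave 3: the late morula inner cell D-08 at 15.9 RPKM (others 0.0582 to 0.921), the middle blastocyst outer cell B-07 at 15.8 (others 0.0293 to 1.17), and the hatched blastocyst letter G cell G-05 at 287 (others 0 to 85.4). AURKB gave 1, the late morula inner cell D-10 at 217 RPKM (others 0.275 to 13.1), the same cell that stood out for CCNB1. CDC20 gave 1, the early morula outer cell H-05 at 116 RPKM (others 285 to 347), in the cell with the most CCNB1 of its set, 483 RPKM.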

How the results depend on the processing

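No paired analysis was possible because the values come from no test and no label ties cells to an embryo. Single cells set many of the calls: leave-one-out, the range of members called is given below. The share of cells high for all 4 was 35.8% at 10 RPKM, 45.3% at 1, 13.7% at 50 and 11.6% with each gene's own median as the threshold; at 5 and 20 RPKM, chosen after seeing the data, it was 40.0% and 26.3%, and with size factors 33.7% (1159 genes above 0 in all cells) or 32.6% (2624 common genes, also chosen after seeing the data). Scaling shifted the median of all genes, for the late against the early morula from -0.92 to -0.59 and 0.25 with the 2 sets of factors. Of the alternative values, 410 for counts of members and shares stayed and 69 moved, and for single members 820 stayed, 119 moved and 1 reversed. The cause was not tested in any case. Relative depth was lowest on median in the late morula (0.542), and what it limits there was not measured. Leaving out the cells with conflicting labels left no late blastocyst cell of letter H, so that alternative gave no value for the comparisons that use them.

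Counts below are members called. The share of all genes called under each alternative is not given, so the counts show how calls moved and are no result about the members. Factors from common genes moved all genes: the median of all was 0.83 for outer against inner middle blastocyst B cells and 0.74 for letter B middle blastocyst against 16-cell cells. With factors from common genes, 2 were higher in the late than the early morula, 2 higher in letter B middle blastocyst than 16-cell cells, 2 lower in early blastocyst G and H than late morula, 0 lower in letter H early blastocyst than early morula, 1 lower in letter H late than middle blastocyst, 0 higher in letter G hatched than late blastocyst, 1 higher in outer late morula cells, 4 higher in outer middle blastocyst B cells, 1 higher and 1 lower in early blastocyst inner G and H than A, 2 lower in middle blastocyst inner G and H than B, and 0 higher in late blastocyst H than G. With factors from genes above 0 in all cells the counts were 0 for letter H early blastocyst (lower), 0 for letter G hatched (higher), 1 for outer late morula (higher), 2 for outer middle blastocyst B (higher), 2 for middle blastocyst G and H against B (lower) and 0 for late blastocyst H against G (higher).

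With the median over cells they were 1 higher in early blastocyst A than late morula, 1 lower in G and H, 1 lower in letter H middle than early and 1 higher in late than middle blastocyst, 2 higher in letter G middle than early and 3 higher in hatched than late blastocyst, 1 higher in outer late morula, 0 lower in outer early blastocyst A, and 1 lower in early and 1 in middle blastocyst inner G and H than A or B. With the depth-weighted mean they were 1 lower in early blastocyst G and H than late morula, 2 lower in letter H early blastocyst, 2 higher in letter G middle blastocyst, 1 higher in outer late morula, 2 higher in outer middle blastocyst B and 1 lower in middle blastocyst G and H. With a pseudocount of 10 they were 0 lower in letter G middle blastocyst, 0 higher in letter G hatched, 0 lower in outer early blastocyst A, 0 higher in outer middle blastocyst B and 1 higher in late blastocyst H. A minimum mean of 1 RPKM or none gave 1 higher in outer late morula. Leaving out the 9 cells with conflicting labels, or moving them to the hatched stage, gave 2 higher in letter G hatched than late blastocyst.

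With each cell left out in turn, at least 1 was higher in early blastocyst A and up to 2 lower in G and H than in the late morula. Within letter H, 0 to 4 were lower in the early blastocyst than the early morula, 0 to 3 higher and as few as 0 lower in the middle, as few as 1 higher and up to 1 lower in the late, and up to 1 lower in the hatched blastocyst. The AURKA ratio of letter H in the middle against the early blastocyst ran from -3.37 without the early cell H-05 to 3.14, reversed, without the early cell H-03. Within letter G, 0 to 2 were higher and as few as 0 lower in the middle, and 0 to 2 higher in the hatched blastocyst. In outer against inner cells, up to 1 was lower at the 16-cell stage, up to 1 higher in the late morula, as few as 0 lower in the early blastocyst A and up to 3 higher in the middle blastocyst B. Between letters, up to 1 was lower in G and H in the early and in the middle blastocyst, as few as 1 higher and up to 1 lower in H in the late, and as few as 0 lower in H in the hatched blastocyst.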
